A study of Mus musculus with 4 samples.

Results

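Ccl1 and Ccr8 encode a chemokine and its receptor, 2 of the 28625 gene symbols in the deposited tables. The pair was chosen by measured values, namely Ccl1 and Ccr8 UMIs set against Il13 UMIs, because earlier results on these files showed Ccl1 rising with Il13 in both sorts; every Ccl1 and Ccr8 level set against Il13 here is therefore a description and carries no test. T cells of the mediastinal lymph node, which drains the lung, were profiled by droplet sequencing from mice given 10 µg of an extract of the mold Alternaria alternata and 25 µg of the hapten-carrier antigen NP-OVA into the nose. The nodes were taken on day 7, and the cells were stimulated for 30 minutes with PMA and ionomycin, which trigger T cells without an antigen receptor signal, so all values are from stimulated cells. In the first sort, follicular helper T (Tfh) cells of C57BL/6 mice were gated as TCRβ+ CD4+ CD44+ PD-1+ CXCR5+ cells. In the second, activated CD4 T cells carrying the reporter signal of C57BL/6 4GET mice were taken; the 4GET allele places GFP in the Il4 locus, so the reporter marks cells that have transcribed Il4 and does not measure the cytokine made at harvest. Each sort was 1 lane with 3 mice told apart by antibody hashtags, and no untreated mouse was analysed here. The mouse strain, the chemistry and the sequencing run all change with the sort, so the sorts were described side by side and not tested against each other.

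CCL1 is a small secreted chemokine that activated T cells and mast cells release, and it attracts cells through CCR8, a receptor coupled to G proteins. CCR8 is known from type 2 helper T cells and from regulatory T cells, above all those of tissues such as skin and lung. Il13 and Il5 encode the effector cytokines of type 2 helper cells, and Il4, made by those cells and by Tfh cells, supports antibody class switching. Gata3 encodes the transcription factor of the type 2 programme, Foxp3 that of regulatory T cells, and Cxcr5 the receptor that leads Tfh cells into the follicle.

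Ccl1 (ENSMUSG00000020702) lies on the minus strand of chromosome 11, where its 2 protein-coding transcripts of 3 exons span chr11:82176657-82179812 in GRCm38. Another annotated transcript extends the gene to position 82305690, 129034 bases in all. Ccr8 (ENSMUSG00000042262) has 1 transcript of 2 exons on the plus strand at chr9:120092114-120094906. The 250 bases upstream of each start site in the RefSeq annotation are shown because both genes were read after a stimulus that engages calcium and because their cells also held Gata3 at unlike rates. They are RefSeq sequence of GRCm38.p6, from chr11:82179813-82180062 read on the minus strand for Ccl1 and from chr9:120091883-120092132 on the plus strand for Ccr8. Capitals mark matches on either strand to GGAAA, the core bound by NFAT factors, or to GATAA, the core bound by GATA factors.
Ccl1: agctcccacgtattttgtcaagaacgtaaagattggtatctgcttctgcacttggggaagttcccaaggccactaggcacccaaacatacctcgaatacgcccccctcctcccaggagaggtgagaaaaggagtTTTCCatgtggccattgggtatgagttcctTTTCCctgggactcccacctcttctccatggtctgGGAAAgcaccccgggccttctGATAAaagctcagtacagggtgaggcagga
Ccr8: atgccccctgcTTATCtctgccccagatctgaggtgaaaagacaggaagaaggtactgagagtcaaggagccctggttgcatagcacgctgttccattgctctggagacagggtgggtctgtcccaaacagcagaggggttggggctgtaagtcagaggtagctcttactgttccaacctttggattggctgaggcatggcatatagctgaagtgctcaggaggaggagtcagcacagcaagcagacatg
The Ccl1 window held 3 matches to GGAAA and the Ccr8 window held 0, and 55.6% of 32851 such promoter windows held at least 1. Each window held 1 match to GATAA, found in 22.6% of all windows. Neither held the AP-1 sequence TGANTCA (6.75% of windows) or TATAA (22.8%). A match is a stretch of letters, not a measured binding site.

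The Tfh sort gave 3092 T cells (1159, 1249 and 684 in mice 1, 2 and 3) with 2651011 to 4512115 unique molecular identifiers (UMIs, each counting 1 captured transcript) per mouse. The reporter sort gave 3559 T cells (1189, 1046 and 1324) with 10625377 to 12663869 UMIs per mouse. Median UMIs per cell were 2661 to 2907 in the Tfh sort and 6347 to 6850 in the reporter sort. Marker genes were read beside the sort labels: Cxcr5 was found in 29.1% of T cells of the Tfh sort and in 17.9% of the reporter sort, and Il4 in 53.7% and 27.3%. Pdcd1, which encodes PD-1, was found in 44.7% and 44.2%, and Gata3 in 28.0% and 58.8%. Il4 was thus lower in the reporter sort and Pdcd1 was alike. Depth and chemistry also differ with the sort, so these shares do not settle the labels. Levels below are in CPM, the UMIs of a gene per 1000000 UMIs of its class, from UMIs summed over the cells of the class in each mouse. Il13+ cells held 2 or more Il13 UMIs, and every Foxp3 or Il4 class below was formed among cells with 0 Il13 UMIs; Foxp3+ means 1 or more Foxp3 UMIs, and Il4+ means 2 or more Il4 UMIs and no Foxp3.

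Ccl1, the ligand, was concentrated in few cells of either sort, and most of its UMIs lay in Il13+ cells. In Il13+ cells of the Tfh sort Ccl1 stood at 7336, 6216 and 3034 CPM in mice 1, 2 and 3 (5529 ± 2232, SD, n = 3 mice, 71 cells). In all T cells of that sort it stood at 349, 323 and 187. The Il13+ cells were 2.30% of the T cells and carried 76.7% of the Ccl1 UMIs, which was 79.2%, 86.9% and 39.4% by mouse. Mouse 3 was thus the low mouse, with most of its Ccl1 outside the Il13+ cells. In that mouse 1 Il13+ cell held 178 Ccl1 UMIs, so its 3034 CPM rests largely on that cell. Among reporter cells the Il13+ class stood at 1924, 1515 and 1521 CPM (1653 ± 234, SD, n = 3 mice, 632 cells), against 833, 806 and 563 in all T cells. They were 17.8% of those T cells and carried 83.9% of the Ccl1 UMIs, between 81.2% and 88.4% in each mouse.

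A handful of cells set these totals. In the Tfh sort 12 cells, 0.388% of the T cells, held at least as many Ccl1 UMIs as all other T cells together, and in the reporter sort 94 cells, 2.64%, did. The highest cell held 247 Ccl1 UMIs in the Tfh sort and 373 in the reporter sort. Ccr8 had no such cells: its maximum was 5 UMIs in the Tfh sort and 4 in the reporter sort, and 156 and 147 T cells held any. A Ccr8 share is therefore a share of cells with a captured transcript and moves with depth, while a Ccl1 level rests on the few high cells.

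**Figure D1:**
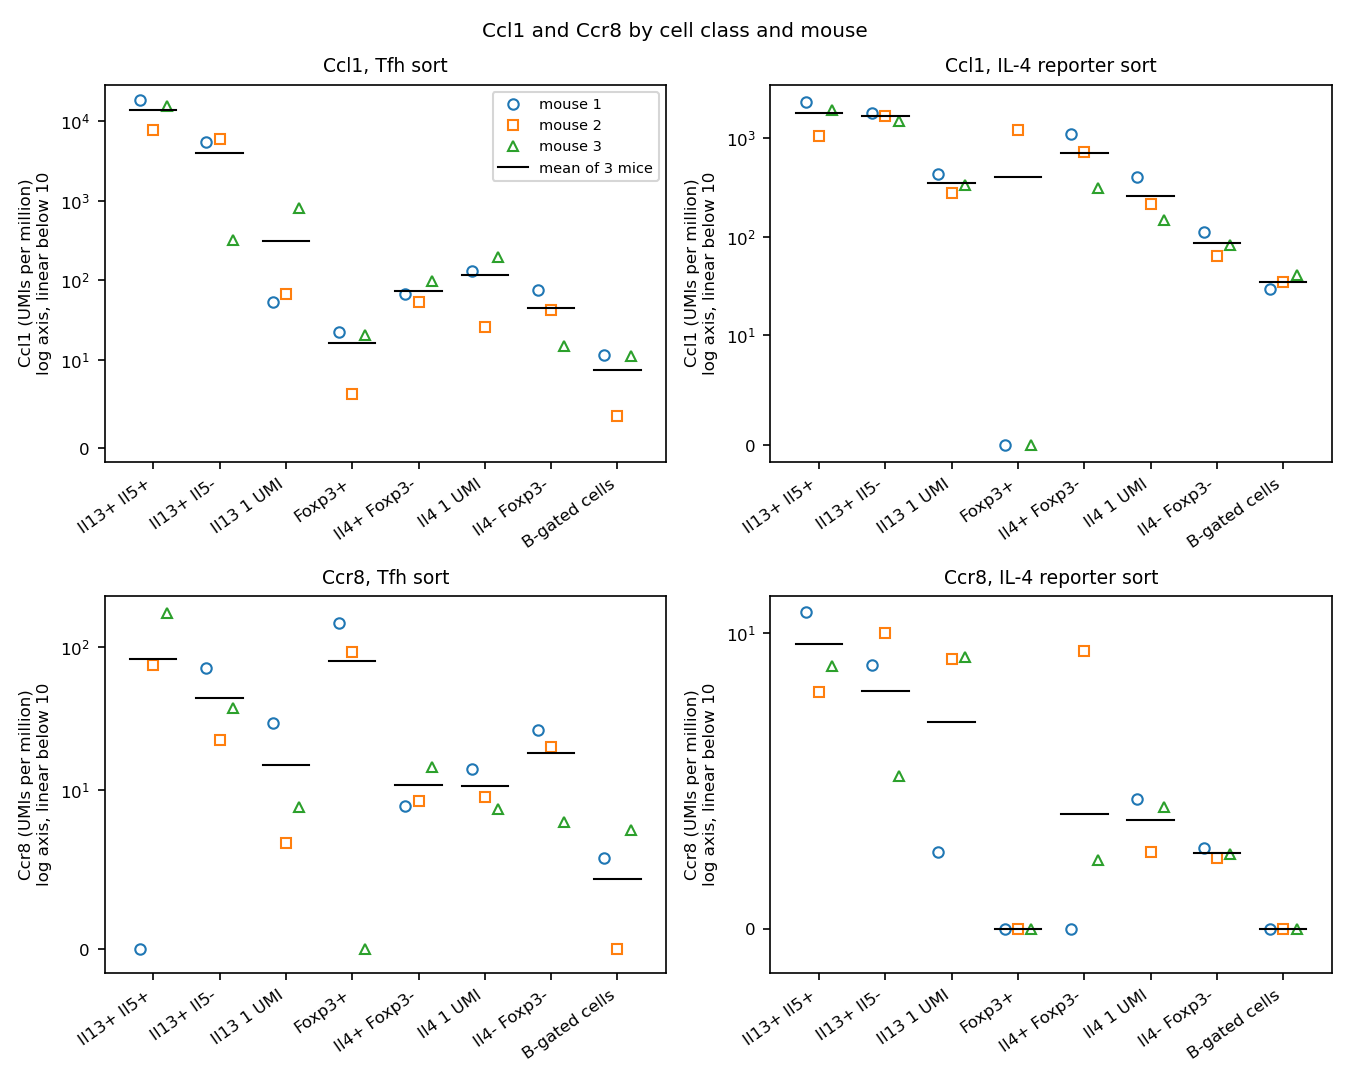
Ccl1 (upper panels) and Ccr8 (lower panels) in CPM by cell class and mouse, for the Tfh sort (left) and the IL-4 reporter sort (right), on a log axis that is linear below 10. Open symbols are the 3 mice and bars their mean. Mean Ccl1 is highest in the Il13+ classes of both sorts, and Ccr8 of the Tfh sort is at a mean of 80.2 in Foxp3+ cells, with mouse 3 at 0.

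By the number of Il13 UMIs in a cell, Ccl1 climbed through the whole range in the Tfh sort and levelled off in the reporter sort. Mean Ccl1 in the Tfh sort was 68.2, 312, 969, 2889 and 12699 CPM in cells with 0, 1, 2 to 4, 5 to 19 and 20 or more Il13 UMIs. The top bin held 23 cells at 11432, 11153 and 15512 by mouse, the last of these from 1 cell, and 91.3% of them held Ccl1. The bins of 2 to 4 and 5 to 19 UMIs held 25 and 23 cells, and mouse 2 in the lower of these stood at 53.6 against 2816 in mouse 1. Over the same bins mean Ccl1 of reporter cells was 166, 347, 1152, 1647 and 1760, and the mice of the upper 2 bins overlapped. Depth moved with the bins: median UMIs per cell went from 2751 at 0 Il13 UMIs to 6630 at 20 or more in the Tfh sort, and from 6183 to 17517 in the reporter sort. Its part in the rise was not tested.

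**Figure D2:**
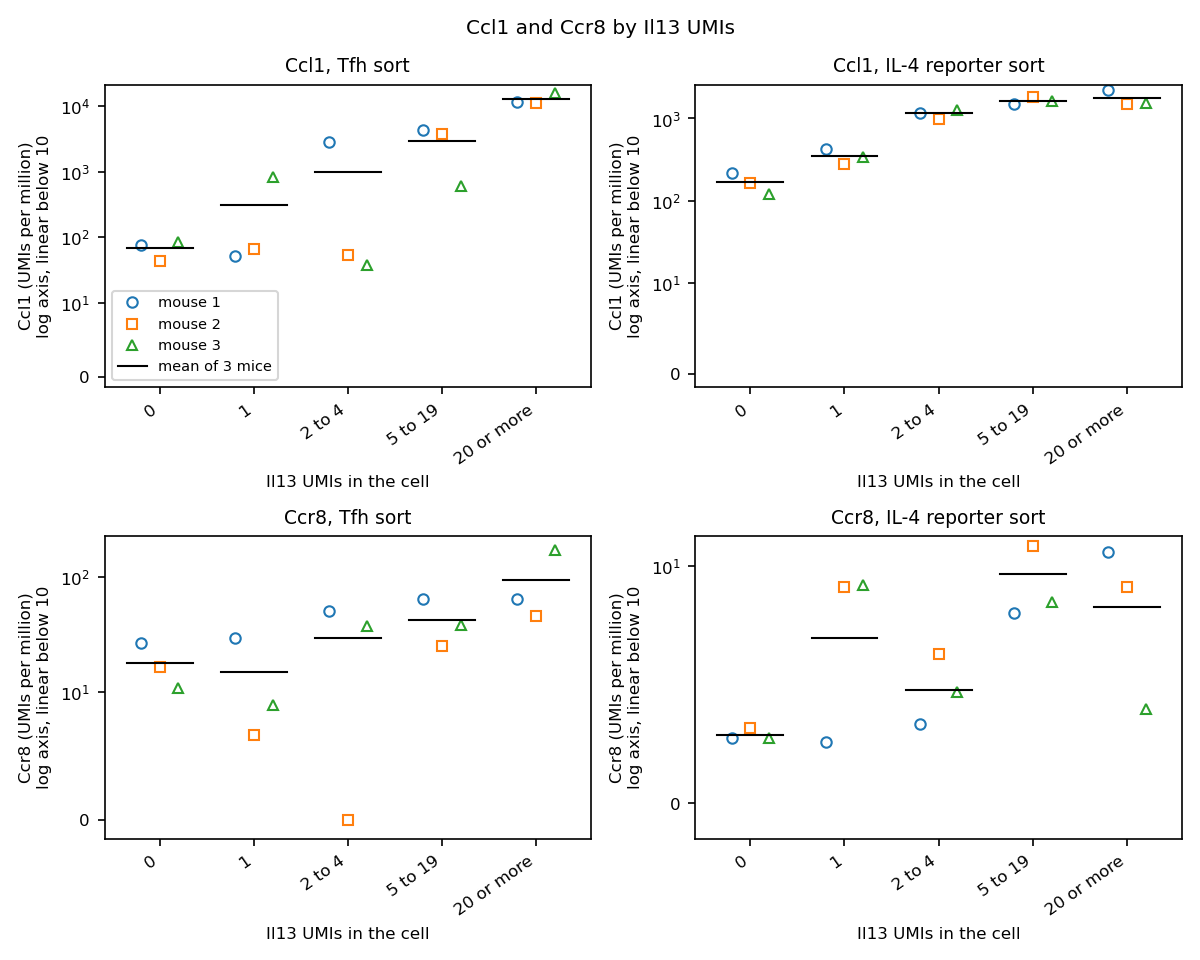
Ccl1 (upper) and Ccr8 (lower) in CPM against the number of Il13 UMIs in the cell, by mouse, for the Tfh sort (left) and the IL-4 reporter sort (right), on a log axis that is linear below 10. Symbols are the 3 mice and bars their mean; mean Ccl1 goes from 68.2 to 12699 in the Tfh sort and from 166 to 1760 in the reporter sort, while the mice overlap for Ccr8.

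Outside the Il13+ cells, Ccl1 in the reporter sort followed Il4 and Gata3. Reporter cells with 2 or more Il4 UMIs and no Il13 or Foxp3 held Ccl1 at 1090, 728 and 312 CPM (178 cells), and those with 0 Il4 UMIs at 112, 64.0 and 82.8 (2061 cells). All 3 mice were higher with Il4, and the groups did not overlap. Within the Il4+ cells Ccl1 stood at 1366, 930 and 410 where Gata3 was found (119 cells) and at 48.2, 25.3 and 31.5 where it was not (59 cells). By Cxcr5 the order was the other way: 0, 23.3 and 18.0 in the 35 Il4+ cells with Cxcr5, against 1460, 954 and 383 in the 143 without. Ccl1 of Il4+ reporter cells was thus higher with Gata3, and higher without Cxcr5, in each of 3 mice. The genes were split separately, so cells with Gata3 and without Cxcr5 were not read as a class. The side with Cxcr5 held 6, 12 and 17 cells by mouse, and the 0 of mouse 1 allows a share of cells of up to 50%. The part of depth in these splits was not tested. Il4+ cells of the Tfh sort without Il13 held Ccl1 at 66.4, 53.9 and 97.2 (1020 cells) and Il4-negative cells at 75.5, 42.5 and 14.9 (1362 cells), which overlapped.

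The same 2 genes split the Il13+ cells less evenly. Il13+ Tfh-sort cells with Gata3 held Ccl1 at 8678, 7635 and 4951 CPM (42 cells) and those without at 4215, 52.4 and 537 (29 cells). The 4951 of mouse 3 rests largely on its 1 cell with 178 Ccl1 UMIs. The groups did not overlap, although median depth was 5950 UMIs with Gata3 and 3448 without. Il13+ cells with Cxcr5 held 0, 8724 and 47.7 (20 cells) against 11921, 5139 and 4481 without (51 cells), so mouse 2 went against the other two. Il13+ reporter cells with Cxcr5 held 536, 859 and 974 (32 cells) and those without held 1968, 1550 and 1590 (600 cells). Cxcr5-positive cells were the lower in all 3 reporter mice.

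The share of cells with any Ccl1 UMI needs a background. Among B-gated cells, which held 2 or more UMIs of the B-cell markers, Cd79a, Cd79b and Ms4a1 among them, and should not make Ccl1, 19.7% of 122 in the reporter sort held a Ccl1 UMI at a median depth of 4532.5 UMIs. Reporter T cells without Il13, Il4 or Foxp3 held one in 15.7% at a median of 5949. That share is at or below background and is not read as expression. Il13+ reporter cells held one in 74.1%, and in 64.4% after each cell was thinned to 4000 UMIs, where B-gated cells gave 13.9%. Of the 367 B-gated cells of the Tfh sort, 8 held a Ccl1 UMI and 4 (1.09%) a Ccr8 UMI, at a median depth of 2030 UMIs. For Ccr8 in the reporter sort the background was 0 of 122 cells, which allows a share of up to 2.46%, counting error only.

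Ccr8, the receptor, was found in unlike classes of each sort. In Foxp3+ cells of the Tfh sort Ccr8 stood at 148, 92.6 and 0 CPM in mice 1, 2 and 3, from 40, 15 and 0 UMIs in 35, 27 and 10 cells. Mice 1 and 2 were above every other class of their own, and mouse 3 had none in 10 cells, which allows a share of cells of up to 30.0%. Ccr8 was found in 29 of the 72 Foxp3+ cells (40.3%), and in 23.8% after thinning to 2000 UMIs. By mouse, before thinning, it was found in 20 of 35, 9 of 27 and 0 of 10 cells. The exact 95% binomial interval of the pooled share, 28.9% to 52.5%, counts cells and leaves out this spread between mice. Il13+ cells of the Tfh sort held Ccr8 at 61.5, 29.4 and 62.2, in 19.7% of cells before and 10.1% after thinning. Il4+ cells of that sort were low, at 8.99, 9.35 and 14.5, with Ccr8 in 3.24% of cells. Foxp3+ cells, 2.33% of the T cells, carried 24.0% of the Ccr8 UMIs of the Tfh sort, and cells without Il13, Foxp3 or Il4 carried 36.2%.

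Among reporter cells Ccr8 lay mainly with Il13 in mice 1 and 2. Il13+ cells held it at 9.63, 9.48 and 5.49 CPM against 2.73, 2.41 and 2.54 in cells without Il13, Il4 or Foxp3, and the groups did not overlap. Il13+ cells carried 58.9% of the Ccr8 UMIs, which was 65.5%, 68.1% and 39.6% by mouse. Cells with 0 Il13 UMIs carried 30.9%, 22.2% and 39.6%, so mouse 3 had as much without Il13. The share of Il13+ cells with a Ccr8 UMI was 13.9%, but 3.94% after thinning to 4000 UMIs, and their median depth was 13038.5 UMIs. In cells without Il13, Il4 or Foxp3 the share was 1.41% before and 1.19% after thinning. Foxp3+ cells were too few to compare: 0 of 15 held Ccr8, which allows a share of up to 20%. Mean Ccr8 by Il13 UMIs was 2.90, 6.98, 4.79, 9.66 and 8.27 in the reporter sort and 18.0, 15.0, 29.6, 42.6 and 95.1 in the Tfh sort, over the bins used for Ccl1.

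Within the Foxp3+ cells of the Tfh sort, Ccr8 did not keep to those with Gata3 or Cxcr5. Foxp3+ cells without Gata3 held Ccr8 at 348, 118 and 0 CPM (44 cells) and those with Gata3 at 71.7, 74.2 and 0 (28 cells). Foxp3+ cells without Cxcr5 held 227, 100 and 0 (50 cells) and those with Cxcr5 held 72.6, 70.5 and 0 (22 cells). The lower group was in each case the deeper, with a median of 9159 UMIs with Gata3 against 3736.5 without. The part of depth in this order was not tested.

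Taken as sources, most cells with 10 or more Ccl1 UMIs were Il13 and Gata3 cells in both sorts. Of 46 such cells in the Tfh sort, 65.2% were Il13+ (65.0%, 83.3% and 25.0% by mouse), 80.4% held Gata3 (80%, 94.4% and 50% by mouse), 80.4% held 2 or more Il4 UMIs, 15.2% held Il5 and 15.2% held Cxcr5. Cxcr5 was held by 0%, 22.2% and 37.5% by mouse, so mouse 3 was above the 30.8% of all its T cells. Over all T cells of that sort these shares were 2.30%, 28.0%, 37.4%, 0.485% and 29.1%. None of the 46 held Foxp3, which allows up to 6.52%, beside 2.39% of all T cells of that sort. Of 412 such cells in the reporter sort, 80.6% were Il13+, 95.6% held Gata3, 33.5% held 2 or more Il4 UMIs, 15.8% held Il5 and 3.40% held Cxcr5. Over all reporter T cells these shares were 17.8%, 58.8%, 11.0%, 3.12% and 17.9%, and 0.728% of the 412 held Foxp3, near the 0.590% of all reporter T cells. The Il13 majority of the Tfh sort depended on the cut. At 2 or more Ccl1 UMIs, 36.7% of 90 Tfh-sort cells were Il13+ (35.1%, 54.5% and 10% by mouse). In the reporter sort 69.5% of 604 such cells were.

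Taken as receivers, cells with a Ccr8 UMI are given beside all T cells of their own sort, whose make-up differed. Of 156 in the Tfh sort, 19.2% held Foxp3 (26.3%, 16.1% and 0 by mouse), 8.97% were Il13+, 35.3% held 2 or more Il4 UMIs, 40.4% held Gata3 and 32.7% held Cxcr5. Among the 48 with 2 or more Ccr8 UMIs the Foxp3 share was 35.4%. Over all T cells of that sort Foxp3 was held by 2.39%, Il13+ cells were 2.30%, and 37.4% held 2 or more Il4 UMIs, 28.0% Gata3 and 29.1% Cxcr5. Of 147 in the reporter sort, 59.9% were Il13+ (66.0%, 72.7% and 37.8% by mouse), 80.3% held Gata3, 26.5% held 2 or more Il4 UMIs, 15.6% held Il5, 6.12% held Cxcr5 and 0.680% held Foxp3. Over all reporter T cells these shares were 17.8% for Il13, 58.8% for Gata3, 11.0% for Il4, 3.12% for Il5, 17.9% for Cxcr5 and 0.590% for Foxp3. The difference between the sorts was not tested.

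**Figure D3:**
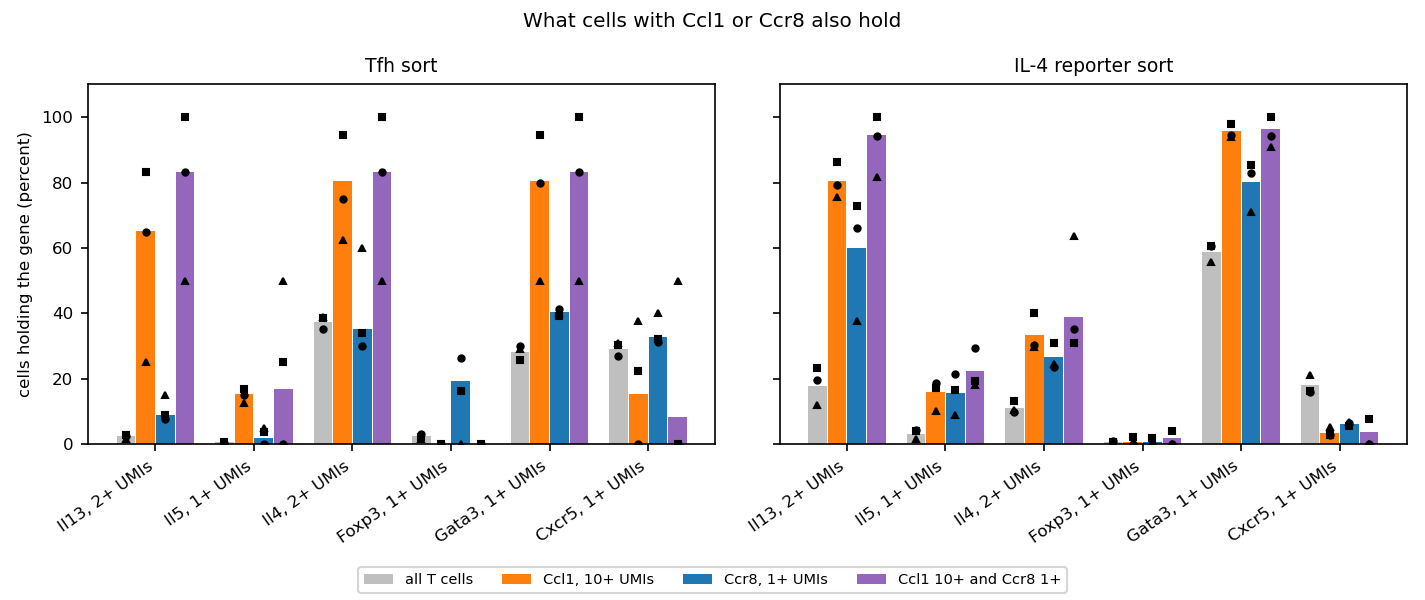
Percent of cells holding Il13, Il5, Il4, Foxp3, Gata3 or Cxcr5 among all T cells (gray), cells with 10 or more Ccl1 UMIs (orange), cells with a Ccr8 UMI (blue) and cells with both (purple), in the Tfh sort (left) and the IL-4 reporter sort (right). Bars pool the cells of 3 mice, and black circles, squares and triangles are mice 1, 2 and 3; 19.2% of Ccr8 cells of the Tfh sort held Foxp3 and 59.9% of those of the reporter sort were Il13+.

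Single cells did hold both ligand and receptor, in 23 of 3092 T cells of the Tfh sort (13, 7 and 3 by mouse) and 88 of 3559 of the reporter sort (29, 35 and 24). Over all T cells of the Tfh sort Ccl1 was found in 14.7% of cells with Ccr8 and 6.95% of those without, at median depths of 4051.5 and 2755.5 UMIs. In Il13+ cells of the Tfh sort, 12 of the 14 cells with Ccr8 held Ccl1 (85.7%), against 45.6% of those without Ccr8. Their median depth was 6514 and 3841 UMIs. In Il13+ reporter cells 73 of 88 cells with Ccr8 held Ccl1 (83.0%), against 72.6% of those without, at median depths of 20944 and 12385.5. Deeper cells show more genes, and the part of depth in these shares was not tested. Without Il13, 13 of 44 reporter cells with Ccr8 held a Ccl1 UMI; the 17.3% of the rest lay below the B-gated background of 19.7% and no difference is read from these shares.

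Cells that held both with 10 or more Ccl1 UMIs were nearly all Il13+: 10 of 12 in the Tfh sort (83.3%) and 51 of 54 in the reporter sort (94.4%). By mouse the Tfh-sort share was 83.3%, 100% and 50%, the last from 2 cells. The Ccl1 cut itself selects such cells: with or without Ccr8, 65.2% and 80.6% of cells past it were Il13+. The high share is therefore not read as a trait of double cells. Median depth of the double cells was 6715.5 and 19033 UMIs, above the 2791 and 6659 of all T cells. The 12 Il13+ cells of the Tfh sort with both genes held 708 Ccl1 UMIs, 178 of them in 1 cell of mouse 3. The 11 double cells without Il13 held 101, of which 45 and 31 lay in 2 cells, 75.2% of the total, and the second of these was the only such cell of mouse 3. A doublet of 2 cells from the same mouse would also read as both, and such doublets were not removed.

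Foxp3+ and Foxp3- cells without Il13 were then compared within mice of the Tfh sort. Both sides were limited to cells with 0 Il13 UMIs. An Il13 cell whose transcript was missed would remain on either side, and the Foxp3- side was the shallower, so Il13 was not shown to be equal. Ccr8 was higher in Foxp3+ cells, at 148, 92.6 and 0 CPM against 17.8, 13.5 and 11.1, a log2 change of 2.70 (SE 0.32, edgeR adjusted p = 1.7e-14). It was higher in 2 of 3 mice, mouse 3 being the one with 0 in 10 cells. Ccl1 was lower, at 22.2, 6.17 and 20.3 against 80.5, 45.0 and 85.7, and fell by 2.15 on the log2 scale (SE 0.44, edgeR adjusted p = 9.1e-05) in 3 of 3 mice. The Foxp3+ side rests on 8 Ccl1 UMIs. The share of cells with a Ccl1 UMI was 6.94% in Foxp3+ cells. Without Foxp3 it was 7.94% in Il4+ cells, 6.05% at 1 Il4 UMI and 4.85% at 0 Il4 UMIs. After thinning to 2000 UMIs these shares were 4.76%, 5.32%, 4.19% and 3.59%. The Foxp3+ share thus lay within the range of the other classes, and the fall lies in the level. That level turns on rare high cells. Of the 72 Foxp3+ cells 0% held 10 or more Ccl1 UMIs, with or without Ccr8. Among all cells of this sort without Il13, 1.46% of those with Ccr8 and 0.465% of those without did. The edgeR p-value does not measure how many such cells 72 cells would catch, and this was not tested. Of the 7332 genes tested, 5.25% passed, 2.58% as higher and 2.67% as lower. Without mouse 1 the Ccl1 change was -2.70 with an edgeR adjusted p of 0.070, which no longer passed. Median depth by mouse was 6250, 4920 and 4496.5 UMIs in Foxp3+ cells and 2776, 2588.5 and 2858.5 in Foxp3- cells. In depth-matched cells Ccl1 still fell, by 1.72 (edgeR adjusted p = 0.016), and Ccr8 had too few UMIs to be tested.

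Most regulatory genes of the list rose with Ccr8 in Foxp3+ cells. Of 10 regulatory genes tested other than Foxp3, 8 rose and 0 fell, with a median log2 change of 1.36 beside -0.05 over all genes tested, and the count was 8 of 10 in depth-matched cells too. Il2ra, the high-affinity subunit of the IL-2 receptor, rose by 3.20, Penk, which encodes an enkephalin precursor, by 2.44, Capg, an actin-capping protein, by 2.34 and Tnfrsf9, the costimulatory receptor 4-1BB, by 2.26. Il10, an inhibitory cytokine, rose by 1.06. Of 9 chemoattractant receptors tested, Ccr8 was the only one to pass. Of 8 chemokine ligands tested, Xcl1 fell by 4.23 and Ccl5 by 2.25 along with Ccl1, while Cxcl2 rose. Neither Xcl1 nor Ccl5 passed when mouse was left out of the model, and without mouse 1 neither of these nor Il10 passed. Il4 was at 122, 333 and 630 CPM against 745, 837 and 812 and fell by 1.65 (SE 0.16, edgeR adjusted p = 2.4e-21). Of 12 Tfh genes 5 fell, among them Il21 by 1.99 and Tcf7 by 1.79. Of 18 genes of acute stimulation 7 fell and Myc rose, while in depth-matched cells 1 of 16 fell and 2 rose. Gata3 (-0.18) and Cxcr5 (-0.59) did not pass.

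Regulatory genes were higher in Ccr8+ cells without Il13, and most of them also where Foxp3 was not seen. Of 11 regulatory genes tested between Ccr8+ and Ccr8- cells of the Tfh sort, 9 rose, with a median log2 change of 1.01 beside -0.02 over all genes tested. With every Foxp3+ cell left out, 8 of 11 rose, with a median of 1.00. A Foxp3+ cell whose transcript was missed would remain in that comparison. Over all genes 2.37% of 7472 passed, 1.24% as higher and 1.12% as lower. Lrrc32, which holds latent TGF-β on the surface, rose by 2.78, Il2ra by 2.68, Capg by 1.97 and Tnfrsf9 by 1.54. Il10 rose by 1.11 (222, 210 and 491 CPM against 130, 119 and 103), and Ccr2, another chemokine receptor, rose by 2.69 from 16 UMIs. With every Foxp3+ cell left out, Il10 (0.76, edgeR adjusted p = 0.19) and Lrrc32 (2.69, 0.15) did not pass, and Ccr2 was too low to be tested, as it was in depth-matched cells. Without mouse 2 none of Ccl22, Ccl4, Il10, Lrrc32, Ccr2, Tnfrsf9, Il4, Sostdc1 and Tcf7 passed. Il4 fell by 1.26 (edgeR adjusted p = 0.00019), and 4 of 12 Tfh genes fell, Sostdc1 by 1.68 and Tcf7 by 0.92 among them. Ccl22, the ligand of CCR4, had 0 UMIs in Ccr8+ cells of 3 mice and was at least 4.67-fold lower, set against a floor of 3 UMIs over the group. Ccl4, an inflammatory chemokine, rose by 2.45, but mouse 3 stood at 2822 CPM against 191 and 133 in mice 1 and 2.

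Ccl1 itself was not called different between these groups. It stood at 160, 6.99 and 346 CPM in Ccr8+ cells against 66.6, 46.2 and 74.6 in Ccr8- cells, a log2 change of 1.00 (SE 0.35, edgeR adjusted p = 0.16), and only mouse 2 had the lower value with Ccr8. The 346 of mouse 3 came from 31 UMIs of 1 cell. The call turned on the setting: Ccl1 passed at 1.31 without Foxp3+ cells (edgeR adjusted p = 0.035), at 0.92 without a low-count filter (0.00067) and at 1.59 without mouse 2 (0.015). The estimate had the other sign among reporter cells: 162, 80.9 and 89.4 in Ccr8+ cells against 219, 163 and 120, -0.65 (SE 0.27, edgeR adjusted p = 0.48), lower in 3 of 3 mice. The difference between the sorts was not tested. In that contrast 0.492% of 8942 genes passed, 0.224% as higher and 0.268% as lower, and Il10 rose by 2.06 (895, 416 and 460 against 120, 153 and 115). Ccr2 rose by 1.83, Igfbp7 by 1.95, Il2ra by 1.71 and Il2, the T-cell growth factor, by 1.39. Il2ra was the only 1 of 10 regulatory genes tested to rise there; with DESeq2 and in depth-matched cells 0 of 10 and 0 of 8 did. Without mouse 1 neither Il2ra (1.32, edgeR adjusted p = 0.86) nor Ccr2 (1.52, 0.37) passed.

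In Il13+ reporter cells, Ccl1 stood at 2108, 980 and 1038 CPM with Ccr8 and at 1885, 1708 and 1602 without, a log2 change of -0.39 (SE 0.12, edgeR adjusted p = 0.11). Mice 2 and 3 were lower with Ccr8 and mouse 1 was higher. Ccl1 passed without mouse 1 (-0.70, edgeR adjusted p = 0.0012), without a low-count filter (-0.43, 1.5e-06) and with a stricter hashtag ratio of 10 (-0.45, 0.034). In depth-matched cells the estimate was 0.061 (0.94). Median depth by mouse was 16233, 25955 and 38046 UMIs with Ccr8 and 11513.5, 11847 and 15319.5 without. Of 8489 genes 2.31% passed, 1.33% as higher and 0.978% as lower. Il2ra rose by 0.74, Ccl4 fell by 1.92, Il2 by 1.44 and Il3 by 1.06. Of 18 stimulation genes 7 fell, and 0 of 18 did in depth-matched cells. With mouse left out of the model 1 gene passed in all.

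Ccl1+ cells in which no Il13 UMI was seen, with 2 or more Ccl1 UMIs against 0, carried type 2 genes. An Il13 cell whose transcript was missed would remain in this comparison, in either sort. Ccl1 was chosen for its rise with Il13, so these calls are not separate from that choice. Among reporter cells 12 of 13 type 2 genes tested rose, with a median log2 change of 1.59 beside -0.01 over all genes tested, of which 5.58% passed, 3.19% as higher and 2.38% as lower. In depth-matched cells it was 12 of 12. Csf2, the cytokine GM-CSF, rose by 5.44, from 63.2, 227 and 37.1 CPM in Ccl1+ cells against 3.32, 2.25 and 0.848, and Il3, a growth factor of mast cells and basophils, by 4.80. Il1rl1, the IL-33 receptor, rose by 2.17, Igfbp7, a secreted insulin-like growth factor binding protein, by 2.13, Gata3 by 1.24 and Il4 by 0.85. Il4 was higher in 2 of 3 mice and did not pass with mouse left out of the model (edgeR adjusted p = 0.081), without mouse 1 (0.14) or without mouse 2 (0.26). With DESeq2 8 of the 10 type 2 genes that had an adjusted p rose, Il4 and Areg not among them. Of 12 Tfh genes 6 fell, Tox2 by 1.88, Cxcr5 by 1.64, Bcl6 by 1.35 and Sh2d1a by 1.20. Of 11 chemoattractant receptors Ltb4r1, Ccr2 and Cxcr6 rose and Cxcr3, Cxcr5 and Ccr7 fell. Without mouse 3 none of Cxcr5, Cxcr3 and Bcl6 passed. Of 9 regulatory genes 5 rose, Il2ra by 1.62 among them, and Penk and Ikzf2 fell.

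Ccr8 was not called different in those Ccl1+ cells: 6.12, 14.4 and 4.29 CPM against 2.69, 2.50 and 2.54, a log2 change of 1.45 (SE 0.71, edgeR adjusted p = 0.27) from 10 UMIs, higher in 3 of 3 mice. Among Tfh-sort cells without Il13, Ccr8 stood at 84.9, 0 and 21.9 with Ccl1 and at 24.5, 17.4 and 11.0 without, a log2 change of 1.13 (SE 0.59, edgeR adjusted p = 0.73) from 12 UMIs. Without mouse 1 it was -0.23, so its sign rests on that mouse. There 0.734% of 7220 genes passed, 0.429% as higher and 0.305% as lower. Il3 rose by 5.27, Igfbp7 by 4.28, Capg by 1.30, Il2 by 1.03 and Gata3 by 0.91 (221, 156 and 285 against 122, 105 and 112), and Sh2d1a, an adaptor that Tfh cells need, fell by 1.15. Of 7 type 2 genes tested 3 rose. Gata3 did not pass without mouse 1 (edgeR adjusted p = 0.28), without mouse 3 (1) or in depth-matched cells (0.11), and without mouse 3 Capg (0.39) and Igfbp7 (0.054) did not either. With DESeq2 0 of the 4 type 2 genes that had an adjusted p rose; Il3 and Igfbp7 had none. Cxcl2 had 0 UMIs in those Ccl1+ cells and was at least 3.63-fold lower, set against a floor of 3 UMIs over the group, but did not pass when any of the 3 mice was left out.

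Il5 did not separate the Il13+ reporter cells by either gene. Ccl1 stood at 2332, 1057 and 1935 CPM in the 98 cells with Il5 and at 1807, 1680 and 1481 in the 534 without, a log2 change of 0.02 (95% interval -0.34 to 0.37, edgeR adjusted p = 1). Ccr8 stood at 12.0, 8.02 and 8.89 against 8.94, 10.0 and 5.16, a log2 change of 0.12 (-0.63 to 0.88, edgeR adjusted p = 1). Neither interval leaves out a change of zero. None of 14 type 2 genes tested passed in this fit, but Il13 rose in Il5+ cells with DESeq2 and in depth-matched cells. Il13 was thus not held equal between the groups. Of 8415 genes 0.0832% passed, 0.0238% as higher and 0.0594% as lower, Izumo1r, the folate receptor 4 of Tfh and regulatory cells, among them (-1.43). The comparisons within a sort share cells and were not compared with each other.

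**Figure D4:**
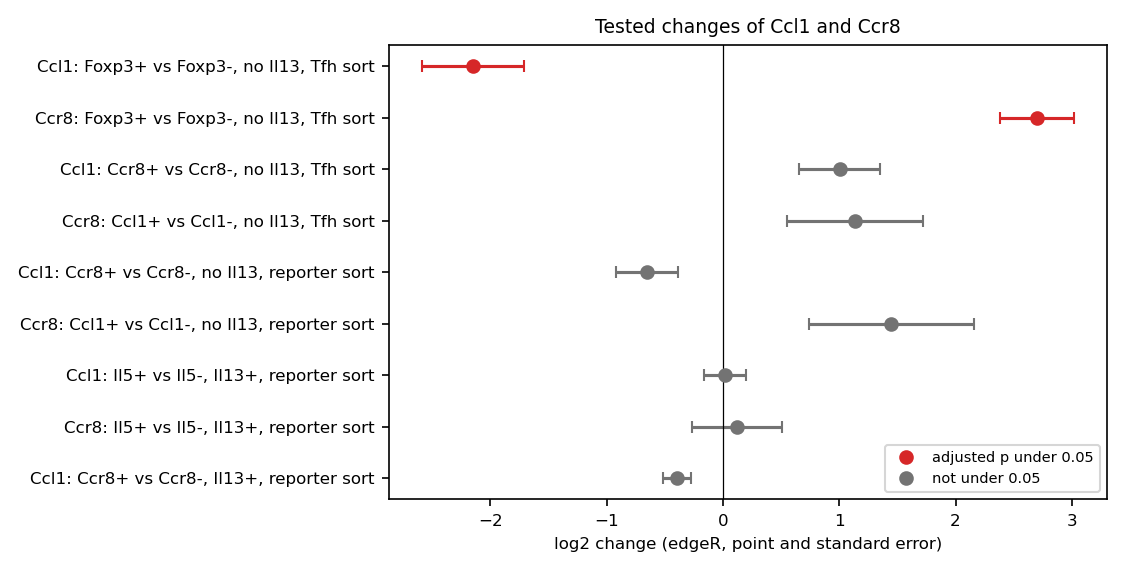
Log2 change of Ccl1 or Ccr8 in each tested comparison (edgeR, point with its standard error), from 3 mice fitted as blocks. Red points passed an adjusted p of 0.05: Ccr8 at 2.70 and Ccl1 at -2.15 in Foxp3+ cells of the Tfh sort. Gray points did not. The Ccl1 fall rests on 8 UMIs in Foxp3+ cells and on rare high cells elsewhere.

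The genes most like each member across T cells were ranked by the mean over 3 mice of the Pearson correlation of log-scaled UMIs, among 9112 genes in the Tfh sort and 10527 in the reporter sort. These correlations are over cells of the same libraries, share depth, and are a description. For Ccl1 in the Tfh sort the first 6 were Il3 (0.513), Il13 (0.441), Ltb4r1 (0.378), Igfbp7 (0.310), Ccr2 (0.261) and Plac8 (0.243). Among reporter cells they were Il13 (0.590), Hilpda (0.529), Il3 (0.498), Ltb4r1 (0.467), Furin (0.465) and Lgals7 (0.463). Il13, Il3 and Ltb4r1, a leukotriene B4 receptor, stood in both lists. For Ccr8 in the Tfh sort they were Capg (0.282), Foxp3 (0.202), Tnfrsf4 (0.186), Socs2 (0.183), Tnfrsf9 (0.173) and Tnfrsf18 (0.168). Among reporter cells none was above 0.172, reached by Il10. Ccl1 and Ccr8 themselves correlated at 0.0711 in the Tfh sort and 0.0971 in the reporter sort.

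Markers of other cell types were read in the cells with 10 or more Ccl1 UMIs. In the Tfh sort all 5 mast cell and basophil markers were at 0, as were all 3 NK-cell markers. Of 4 macrophage markers C1qa, C1qb and C1qc were at 0 and Lyz2 was found in mouse 1, at 8.26 CPM beside 7.18 for the list in all its T cells. The 4 B-cell markers summed to 0 to 23.5 CPM against 15.8 to 23.3 in all T cells. The T-cell gate had already limited each cell to under 2 UMIs of the macrophage and of the B-cell markers. Low values of these lists were therefore fixed by the gate and are no check. In the reporter sort the sum of the 5 mast cell and basophil markers was 0.309 to 5.50 CPM, all of it Mcpt8, against 0.237 to 2.35 in all T cells. The 5 genes listed for group 2 innate lymphoid cells, Il7r, Klrg1, Kit, Arg1 and Rora, several of which T cells share, summed to 140 to 231 CPM in the Tfh sort against 81.1 to 94.6 in all T cells. Such reporter cells gave 115 to 234 against 70.5 to 118. Kit was at 0 in both sorts and Arg1 in the Tfh sort. The part of such cells in the Ccl1 values was not tested.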

How the data were processed

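The gene UMI counts and the hashtag counts were used as the authors deposited them; the counts are raw whole numbers, 1 table per sort. Cell Ranger 2.2.0 is named in the submitters' processing notes, with bcl2fastq 2.18.0.12 and 2.20.0.422, and the builds mm10 and GRCm38, while the header of the reporter sort's deposited count table names version 3.0.2. Barcodes were kept that showed at least 500 genes and no more than 10% of UMIs from mitochondrial genes (3916 of 3956 barcodes in the Tfh sort, 4585 of 7646 in the reporter sort). A cell was given to the mouse whose hashtag had 10 or more counts and 3 times the second, which left 3780 and 3989 and dropped barcodes with hashtags of 2 mice; no other doublet caller was run, and 1 barcode occurs in both sorts. T cells held 1 or more UMIs of Cd3d, Cd3e and Cd3g, under 2 of the B-cell markers (not all of which are reported here), under 2 of Lyz2, C1qa, C1qb and C1qc, and under 2 of Cd8a and Cd8b1.

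For tests, UMIs were summed per mouse and class where both classes had 10 or more cells, and fitted with edgeR 4.0.16 in R 4.3.3 (quasi-likelihood test, filterByExpr at a minimum count of 10, TMM, mouse as block) across all genes, with Benjamini-Hochberg adjustment and a threshold of 0.05. The block was used because the same mouse gives both classes; deviations of paired classes correlated at -0.00864 to 0.329 over 21 pairs, of which 7 were over 0.1. Standard errors are the log2 change over the square root of F. The Foxp3 contrast was not fitted in the reporter sort (6, 3 and 6 Foxp3+ cells). P-values rest on 3 mice of 1 lane. The spread behind them is estimated partly from other genes, so a small p-value can stand beside a mouse that goes the other way. In simulated counts with known changes the test recovered 42% of 4-fold and 3% of 2-fold changes for the Foxp3 contrast, and 77% and 25% for Ccl1+ against Ccl1- cells of the reporter sort. Over all fitted contrasts recovery ran from 39% to 82% and from 2% to 28%. The simulation gave every gene the same spread, had no mouse differences and changed only genes above a count floor. It therefore does not measure recovery for Ccl1, held by few high cells, or for sparse Ccr8.

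Alternatives were RLE size factors, DESeq2 1.42.0, no low-count filter, no block, leaving out each mouse, no T-cell gate, a hashtag ratio of 10, other UMI thresholds and depth matching. A mitochondrial limit of 20% was added after seeing the data. Named genes were Ccl1, Ccr8, Il13, Il5, Il4, Foxp3, Gata3 and Cxcr5, up to 4 members of each list by largest change among those past the threshold with the same direction in every mouse, and the 6 genes most like each member; a few others named in counts were picked once values were known. The 2 members and all gene lists were chosen with earlier results of these data known. Python 3.11.15, numpy 2.4.6, scipy 1.17.1, pandas 2.3.3 and matplotlib 3.10.9 did the rest. Intervals and limits cover counting error only.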

Additional observations from a re-analysis of the deposited data

Results flagged for a closer look

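Barcodes that the filters left out also held Ccl1 and Ccr8. In the reporter sort, 1860 barcodes with 500 or more genes but over the mitochondrial limit held Ccl1 at 1450 CPM and Ccr8 at 10.4, above the 678 and 5.25 of all assigned cells. The 1201 barcodes with under 500 genes held Ccl1 at 263. The 596 barcodes that passed but had no single hashtag held Ccl1 at 952 and Ccr8 at 6.25. In the Tfh sort, 136 such barcodes held Ccl1 at 299 and Ccr8 at 20.7, against 273 and 17.5 in assigned cells. With a mitochondrial limit of 20%, chosen after seeing the data, Ccl1 in Il13+ reporter cells was 2090, 1841 and 1684 CPM by mouse. No sample stood apart by a test, since a sort holds 3 mice.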

How the results depend on the processing

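In Foxp3+ cells of the Tfh sort Ccr8 passed, in the same direction, under every alternative that could be fitted, and Ccl1 did except without mouse 1. Leaving out each mouse gave Ccl1 changes of -2.70 to -1.99 there. Leaving out the replicate block gave Ccr8 2.88 and Ccl1 -2.13 (0.011) and changed no call of Ccl1 or Ccr8.

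Ccl1 in Ccr8+ cells of the Tfh sort ranged from 0.60 to 1.59 over left-out mice, passing without mouse 2, without Foxp3+ cells (1.31) and without the low-count filter (0.92). Ccr8 in Ccl1+ cells of that sort ranged from -0.23 to 1.53. Ccl1 in Ccr8+ Il13+ reporter cells ranged from -0.70 to -0.21, and was -0.43 without the filter, -0.45 at a hashtag ratio of 10 and 0.061 in depth-matched cells. Between Il5+ and Il5- cells no setting passed for Ccl1 or Ccr8: Ccl1 ranged from -0.17 to 0.39, with -0.0070 without the filter and -0.085 at 10 Il13 UMIs, and Ccr8 from -0.055 to 0.54, with -0.018 at 10 Il13 UMIs.

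Other reversed estimates, none of which passed unless stated, were Gata3 in Foxp3+ cells (0.033 at a hashtag ratio of 10), Gata3 in Ccr8+ Tfh-sort cells (0.15 without the T-cell gate) and Cxcl2 in Ccl1+ Tfh-sort cells (0.44 with Ccl1+ at 1 UMI). In Ccr8+ reporter cells without Il13 they were Il4 (-0.082 to 0.21 over left-out mice, -0.035 at a ratio of 10) and Gata3 (-0.016 without the filter, -0.033 without the block, -0.32 to 0.43 over left-out mice, -0.37 at a ratio of 10). By Il5, Il4 gave 0.0014 with RLE, 0.0036 with DESeq2, 0.068 without the block, -0.37 to 0.36 over left-out mice, 0.10 without the gate, 0.11 depth matched and 0.083 at 10 Il13 UMIs, and Gata3 gave -0.17 to 0.42 over left-out mice and -0.017 at 10 Il13 UMIs. In Ccr8+ Il13+ cells, Il13 gave -0.074 to 0.24 over left-out mice and -0.082 at 10 UMIs, Il5 -0.080 to 0.93 (passing without mouse 2), Il4 -0.66 to 0.18 and 0.12 depth matched, and Gata3 0.066 depth matched.

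Counts of genes passed moved more than the members. Foxp3: 385, with DESeq2 101, depth matched 130, and 61, 97 and 492 without mice 1, 2 and 3. Ccr8 in the Tfh sort: 177, with DESeq2 60, no filter 295, no block 370, no gate 278, depth matched 61, without Foxp3+ cells 76, and 49, 19 and 618 without mice 1, 2 and 3. Ccl1 in the Tfh sort: 53, with DESeq2 23, no gate 96, depth matched 33, Ccl1+ at 1 UMI 27, and 21 to 78 over left-out mice, lowest without mouse 3. Ccr8 in the reporter sort: 44, with DESeq2 7, no block 11, depth matched 9, and 12 to 42, lowest without mouse 1. Ccl1 in the reporter sort: 489, with DESeq2 165, no gate 759, depth matched 136, and 304 to 410, lowest without mouse 3. Il5: 7, with DESeq2 16, no filter 143, no block 2, no gate 2, depth matched 32, 10 Il13 UMIs 2, and 7 to 35, highest without mouse 2. Ccr8 in Il13+ cells: 196, with DESeq2 63, no filter 383, no block 1, no gate 125, depth matched 12, 10 Il13 UMIs 64, and 115 to 198, lowest without mouse 1. The causes were not tested, except that a left-out mouse leaves fewer samples.

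Cells with both genes numbered 7 to 10 in Il13+ and 10 to 20 in all T cells of the Tfh sort, and 41 to 57 and 53 to 64 in the reporter sort, when a mouse was left out. Thinning took the share of Il13+ reporter cells with Ccl1 from 74.1% to 64.4%. The smaller class of each Ccr8 test held 10 to 55 Ccr8 UMIs, which limits it.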
